A study of Mus musculus with 107 samples.

Results

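Mouse neural progenitor cells (NPC) that had been passed in medium through a pulled glass pipette, as they are when loaded for injection, were compared with NPC taken from culture. The pipetted NPC in medium were 5 of the 107 libraries of the series, chosen by their titles. They were set against 16 paired-read culture libraries, 4 each of NPC at passage 5, 15 and 30 of the first derivation (NPC P5, NPC P15 and NPC P30) and of passage 15 of the third derivation (NPC P15 D3). The comparison asked which transcripts differed after the injection procedure. All groups were C57BL/6 NPC of genotype RiboTag +, made from 1 female mouse embryonic stem cell line, so all carry the HA-tagged ribosomal protein Rpl22 and none stands for a separate animal. The cells were induced with retinoic acid and purmorphamine and expanded with EGF and FGF. RNA was pulled down with the tagged ribosomes and sequenced from poly-A libraries, so that each value stands for ribosome-bound mRNA. The labels give no passage, derivation or batch for the pipetted cells, so pipetting cannot be told apart from the state of the culture they came from. A gene was therefore counted only if it differed from each of the 4 cultures in the same direction and if its 5 pipetted libraries lay outside the range of all 16 culture libraries. P-values measure the spread between libraries of 1 cell line.

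NPC are proliferating precursors of astrocytes, oligodendrocytes and neurons. Like many dividing cells they take up much glucose and break it down by glycolysis, releasing lactate. When oxygen falls, HIF transcription factors raise glucose transporters, glycolytic enzymes and their own prolyl hydroxylases. When amino acids are short or protein synthesis is disturbed, the integrated stress response acts through ATF4 to raise enzymes of serine, glycine and proline synthesis, amino acid transporters and tRNA synthetases.

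The pipetted libraries held 56526223 to 76542216 counts and the culture libraries 30473157 to 147764968. The labelled cell type was borne out by its markers. Nes, an intermediate filament protein of NPC, stood at 1205 to 1321 CPM (counts scaled to library size by TMM) in the pipetted libraries and at 873 to 1592 CPM in the cultures. Sox2, a transcription factor of neural stem cells, stood at 271 to 300.4 CPM against 211 to 353. Rpl22, the tagged gene, was at 91.0 to 107 CPM against 90.8 to 224, and its log2FC differed in sign between cultures. Myeloid genes summed to 0.547 to 1.66 CPM over 10 genes and endothelial genes to 1.90 to 4.07 CPM over 8 genes in pipetted NPC. By Spearman's rho over genes, a description with no test, pipetted libraries were nearest to NPC P30 among the cultures (median 0.983), and less near to NPC P5 (0.968), NPC P15 (0.968) and NPC P15 D3 (0.952). Pipetted libraries had a median rho of 0.988 with each other.

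Against a single culture, many genes differed. At an adjusted p below 0.01 by edgeR, 3618 of 14424 genes tested were DEGs against NPC P5 (25.1%), 3738 of 14263 against NPC P15 (26.2%), 1732 of 14419 against NPC P30 (12%) and 5451 of 14484 against NPC P15 D3 (37.6%). Most of these turned on the culture chosen, and 1483 genes were past the test in opposite directions in different cultures. Of 13858 genes tested against all 4 cultures, 123 were higher in pipetted NPC than in every culture (0.888%) and 48 were lower (0.346%), or 171 in all (1.23%). The differences were modest. The median log2FC over the 4 cultures had a median of 0.62 in the 123 higher genes and was above 1 in 35 of them, and in the 48 lower genes its median was -0.65. NPC P30 gave the smallest difference for 69 of the 123 higher genes. Of the called genes 22 higher and 7 lower ones were on any of the gene lists, with most of the former in glycolysis and hypoxia targets and most of the latter in the integrated stress response. By the smallest log2FC of the 4 comparisons, Slc16a3 was first among the higher genes of at least 10 CPM and Mtln first among the lower ones.

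Glycolysis was the list with the most calls. Of its 20 genes tested 9 were higher in pipetted NPC than in all 4 cultures, 45% against 0.888% of all genes, and none was lower. These were Slc16a3, Tpi1, Aldoc, Gpi1, Gapdh, Pfkl, Hk1, Pkm and Ldhb. The median log2FC of the 20 genes was 0.59 over NPC P5, 0.36 over NPC P15, 0.47 over NPC P30 and 0.41 over NPC P15 D3, where the median of all genes lay between -0.01 and 0.00. Summed over the list, pipetted libraries held 10219 to 10649 CPM and culture libraries 6589.6 to 8856, with no overlap. The 9 called genes, chosen for not overlapping, are part of this sum.

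Slc16a3 encodes MCT4, the transporter that exports lactate. It stood at 55.7, 63.9, 63.6, 65.6 and 56.5 CPM in the 5 pipetted libraries, against a lowest of 1.25, a median of 5.64 and a highest of 14.1 in the 16 culture libraries. A called gene lies above every culture library by definition, and here the gap was wide, from 14.1 to 55.7 CPM. The log2FC was 4.96 ± 0.17 (SE) over NPC P5, 2.20 ± 0.10 over NPC P15, 2.54 ± 0.12 over NPC P30 and 4.70 ± 0.19 over NPC P15 D3, with adjusted p values from 1.9e-13 to 1.8e-10. It was the gene with the largest median difference of the 123, at 3.62 on the log2 scale. Tpi1, triose phosphate isomerase, varied little within pipetted NPC, at 586, 588, 580, 584 and 585 CPM, and ranged from 247 to 411 CPM in the cultures with a median of 367. Its smallest log2FC was 0.55 ± 0.03 over NPC P15 (adjusted p = 2.9e-10). Aldoc, the aldolase of brain and a gene of the astrocyte list too, stood at 1283, 1258, 1272, 1219 and 1189 CPM against 368 to 923 in the cultures (median 717). Its log2FC ran from 0.49 ± 0.03 over NPC P30 to 1.66 ± 0.04 over NPC P15. Gpi1, glucose-6-phosphate isomerase, stood at 715, 717, 733, 758 and 766 CPM against 452 to 580 (median 531), and its log2FC ran from 0.44 ± 0.03 to 0.66 ± 0.03. That the pipetted and culture libraries of these genes do not overlap is part of the definition of a call.

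The other 5 called enzymes differed by less in their weakest comparison. Ldhb, a lactate dehydrogenase subunit, stood at 705 to 760.5 CPM against 199 to 605.5 in the cultures, with a log2FC of 0.33 over NPC P30 and 1.80 over NPC P15. Pkm, pyruvate kinase, was at 2033 to 2150 CPM against 1256 to 1932, and its log2FC was 0.18 to 0.68. Hk1, hexokinase, was at 359 to 395 CPM against 169 to 342. Pfkl, phosphofructokinase of liver type, was at 186 to 208 CPM against 82.7 to 154. Gapdh was at 242 to 261 CPM against 164 to 207, and its many near-identical pseudogenes make its count uncertain. Members without a call include Ldha, the other lactate dehydrogenase subunit, with a log2FC of 0.48 over NPC P5, -0.01 over NPC P15, 0.71 over NPC P30 and -0.06 over NPC P15 D3.

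**Figure D1:**
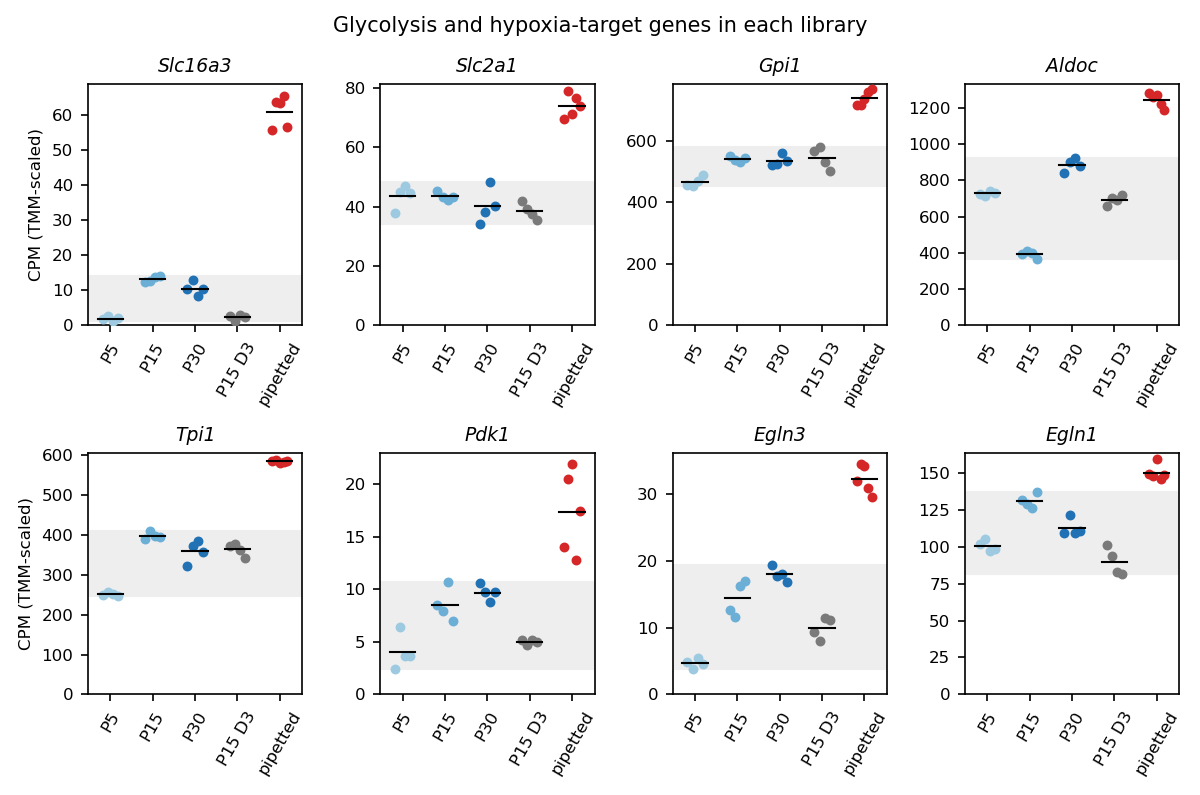
Level of 8 genes in each library in TMM-scaled CPM on a linear axis from 0, with NPC P5, NPC P15, NPC P30 and NPC P15 D3 (4 libraries each) and pipetted NPC in medium (5 libraries). Points are libraries, black lines group means and the grey band the range of the 16 culture libraries. All 5 pipetted libraries lie above the band for each gene, as the definition of a call requires. The margin relative to the level is widest for Slc16a3 (55.7 to 65.6 against at most 14.1 CPM) and narrowest for Egln1.

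Of the 18 hypoxia targets tested, 4 were higher than in all 4 cultures, 22.2% against 0.888% of all genes, and none was lower. Egln3 encodes a prolyl hydroxylase that marks HIF for destruction and is itself a HIF target. It stood at 31.9, 34.5, 34.2, 31.0 and 29.5 CPM in pipetted NPC, and at 3.82 to 19.4 CPM (median 11.6) in the cultures. Its log2FC ran from 0.83 ± 0.11 over NPC P30 (adjusted p = 2.2e-05) to 2.78 ± 0.14 over NPC P5. The pipetted libraries lay close together, well above the highest culture. Pdk1, the kinase that holds pyruvate back from the citric acid cycle, stood at 14.0, 20.5, 22.0, 12.8 and 17.5 CPM against 2.39 to 10.7 (median 6.69), with a log2FC from 0.83 ± 0.18 over NPC P30 to 2.10 ± 0.26 over NPC P5. Slc2a1, the glucose transporter GLUT1, stood at 69.6, 78.9, 71.1, 76.5 and 73.8 CPM against 34.3 to 48.3 (median 42.0). Its difference was nearly the same over every culture, from 0.76 ± 0.08 over NPC P5 to 0.95 ± 0.08 over NPC P15 D3. Egln1, the main HIF prolyl hydroxylase, was at 146 to 159 CPM against 81.4 to 137, and its weakest comparison was just inside the threshold (log2FC 0.19 ± 0.05 over NPC P15, adjusted p = 0.0095). The median log2FC of the 18 genes was 0.99 over NPC P5, 0.11 over NPC P15, 0.42 over NPC P30 and 0.62 over NPC P15 D3. The summed level of the list overlapped with NPC P15, at 869.9 to 905 CPM in pipetted NPC and 841 to 893 CPM in NPC P15.

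These calls rested on the 4 paired-read cultures. In the single-read libraries of the second derivation (NPC P15 D2, n = 6), Egln3 stood at 28.4 to 34.3 CPM, Pdk1 at 12.7 to 16.8 CPM and Slc2a1 at 58.8 to 71.0 CPM, within or next to the pipetted range. With that group as a further culture, 1 of the 4 hypoxia calls (Egln1) and 6 of the 9 glycolysis calls were kept, without Gpi1, Hk1 and Pfkl. Slc16a3 stood at 28.9 to 43.3 CPM there, below the lowest pipetted library, and stayed called. Read type and derivation cannot be told apart in that group. Egln1 lost its call with library totals in place of TMM and with all groups in 1 fit.

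The promoters of 3 of these genes are shown because HIF binds DNA at a core of ACGTG. Each is the 250 bases before a RefSeq transcript start on GRCm38.p6, 5′ to 3′ on the strand of the gene, with ACGTG on either strand in capitals. Slc16a3 lies on the plus strand (chr11:120948817-120949066), Slc2a1 on the plus strand (chr4:119108495-119108744) and Egln3 on the minus strand (chr12:54203875-54204124). The Slc16a3 gene itself begins at 120948484, so its window lies within the gene, before an internal transcript start.
Slc16a3: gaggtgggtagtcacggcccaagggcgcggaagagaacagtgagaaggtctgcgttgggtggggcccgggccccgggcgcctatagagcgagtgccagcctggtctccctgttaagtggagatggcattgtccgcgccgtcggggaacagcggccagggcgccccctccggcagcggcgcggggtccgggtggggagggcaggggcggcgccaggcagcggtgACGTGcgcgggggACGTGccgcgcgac
Slc2a1: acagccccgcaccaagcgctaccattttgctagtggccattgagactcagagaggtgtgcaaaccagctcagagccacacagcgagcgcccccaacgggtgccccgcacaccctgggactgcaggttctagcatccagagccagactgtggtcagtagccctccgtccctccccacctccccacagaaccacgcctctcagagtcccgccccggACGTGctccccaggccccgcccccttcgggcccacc
Egln3: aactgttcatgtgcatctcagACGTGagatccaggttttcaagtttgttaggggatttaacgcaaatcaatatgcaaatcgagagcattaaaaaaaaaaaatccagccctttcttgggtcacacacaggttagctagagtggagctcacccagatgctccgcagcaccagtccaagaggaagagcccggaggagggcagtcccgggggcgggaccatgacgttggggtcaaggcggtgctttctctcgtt
Slc16a3 held 2 matches, which begin 27 and 14 bases before the start, and Slc2a1 held 1 match at 36 bases. The single match of Egln3 lies at 229 bases, and neither of the 2 windows of Pdk1 held one. ACGTG, which is contained in the E-box CACGTG, occurred in 16.6% of all 32851 promoter windows of the same length and in 21.5% of the windows of tested genes. It occurred in 35 of 134 windows of the higher genes (26.1%) and in 13 of 51 windows of the lower genes (25.5%). These are matches of letters and not shown to be bound.

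The remaining higher genes named, those with the largest least difference at a mean of at least 10 CPM, fell into several roles. Nr0b1, an orphan nuclear receptor also called DAX1, stood at 90.1, 98.2, 91.6, 83.6 and 94.7 CPM in pipetted NPC and at 1.80 to 39.3 CPM (median 8.54) in the cultures. Its log2FC was 1.40 ± 0.09 over NPC P30 and 4.95 ± 0.18 over NPC P15, so that the cultures themselves differed widely. Sptb, a spectrin of the membrane skeleton, showed the same order of cultures at its weak end, at 54.9, 64.2, 54.1, 57.9 and 52.6 CPM against 4.48 to 41.5 (median 11.6) and with a log2FC of 0.68 ± 0.10 over NPC P30. Slc9a3r1, the scaffold protein NHERF1 that ties membrane proteins to the actin cortex, stood at 167 to 198 CPM against 56.1 to 97.5, and its log2FC was 0.97 ± 0.07 or more in each comparison. Dcaf12l2, on the X chromosome, stood at 14.4 to 20.5 CPM against 1.74 to 11.4.

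Genes of secreted and matrix proteins were also among them. Loxl2, a lysyl oxidase that crosslinks collagen, was at 11.6 to 16.3 CPM against 1.90 to 9.32, with a log2FC from 1.04 ± 0.19 to 2.03 ± 0.18. Serpinf1, the secreted factor PEDF, was at 24.4 to 33.7 CPM against 2.52 to 18.4, with a log2FC of 0.84 ± 0.13 over NPC P30 and 3.22 ± 0.17 over NPC P5. Emid1, a matrix protein, was at 91.3 to 107 CPM against 20.8 to 66.6. Steap3, a ferrireductase of iron uptake, was at 41.9 to 61.5 CPM against 8.64 to 34.4. Zdhhc12, a palmitoyltransferase, and Crybg3 had smaller differences, with a least log2FC of 0.68 ± 0.15 and 0.65 ± 0.10. Loxl2 lost its call with NPC P15 D2 as a further culture.

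**Figure D2:**
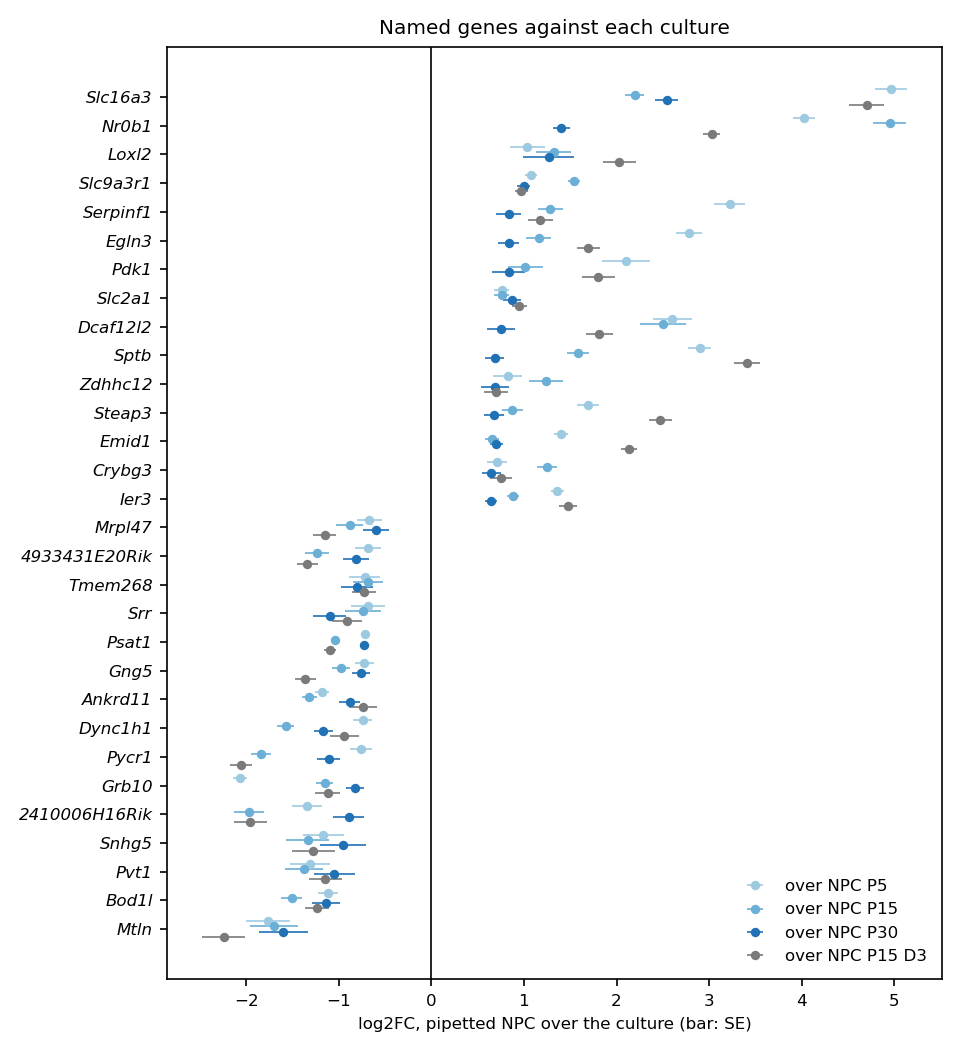
Log2FC of pipetted NPC in medium (n = 5) over each of the 4 cultures (n = 4 each), with bars for the SE, for the 15 higher and 15 lower genes with the largest least difference. Slc16a3 and Nr0b1 reach log2FC near 5 over some cultures, while the lower genes lie between -0.60 and -2.24.

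Genes of signalling and of cell identity rose singly. Ier3, a survival gene of the immediate early list, was the only one of its 32 genes called (3.12% against 0.888% of all genes). A single call says nothing of the list as a whole. Ier3 stood at 173, 163, 170, 152 and 146 CPM against 51.6 to 105 (median 75.9), and its log2FC ran from 0.64 ± 0.06 over NPC P30 to 1.48 ± 0.09 over NPC P15 D3. Spry4, a feedback inhibitor of FGF signalling, was at 998 to 1052 CPM against 493 to 911. Txn1, thioredoxin, stood at 2574, 2134, 2049, 1921 and 2268 CPM against 645 to 1890, close to the highest culture library, and lost its call with DESeq2 in place of edgeR, with library totals and with all groups in 1 fit. Hmox1, heme oxygenase and the other called gene of the oxidative stress list, was lower, at 54.9 to 65.9 CPM against 74.3 to 118, with a log2FC from -0.40 ± 0.08 to -0.82 ± 0.08.

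Among the NPC genes Cd9, a tetraspanin, and Vim, vimentin, were higher, 2 of 24 tested (8.33% against 0.888% of all genes). The NPC list as a whole did not move in 1 direction. Its median log2FC was 0.04 over NPC P5, -0.16 over NPC P15, -0.12 over NPC P30 and 0.57 over NPC P15 D3. Its summed level was 8367 to 8750 CPM in pipetted NPC, below NPC P5 (8843 to 9120 CPM) and above NPC P15 D3 (6526 to 7126 CPM). Cd9 stood at 231 to 256 CPM against 65.1 to 204 and Vim at 1715 to 1813 CPM against 1084 to 1654. Vim lost its call with library totals in place of TMM. Among the astrocyte genes Aldoc and Mlc1, a membrane protein of astrocyte endfeet, were higher, 2 of 24 tested (8.33%), but the list differed between cultures. Its median log2FC was 0.58 over NPC P5, 0.36 over NPC P15 and 0.44 over NPC P15 D3, and -0.20 over NPC P30, where 4 genes were higher and 5 lower past the test. The summed level was 4494 to 4687 CPM against 2842 to 4489 CPM in the cultures, of which Aldoc alone made up 1244 CPM on average in pipetted NPC. None of the 13 tested neuronal genes was called. The neuronal list of 20 genes, untested ones included, summed to 635 to 683 against 716 to 950 CPM. Most of this was Map2, a microtubule protein, which stood at 542 to 581 CPM against 577 to 843 and so overlapped with the cultures. Less RNA of a type and fewer cells of it cannot be told apart in bulk samples, and the part of these lists in the results above was not tested. In cholesterol metabolism Dhcr7, the last enzyme of cholesterol synthesis, was higher, with a weakest log2FC of 0.16 ± 0.04 over NPC P5. It lost the call with NPC P15 D2 as a further culture, as did Mlc1 and Ogdh. Ogdh, a subunit of the oxoglutarate dehydrogenase complex, was the only called gene of 22 in the citric acid cycle list, at 375 to 437 CPM against 223 to 363. That was 4.55% of the list, against 0.888% of all genes.

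The integrated stress response was the list with the most lower genes. Of 30 genes tested 5 were lower than in all 4 cultures, 16.7% against 0.346% of all genes, and none was higher. All 5 kept the call with NPC P15 D2 as a further culture. The difference was set by 3 of the cultures, with a median log2FC of the list of -0.99 over NPC P15, -1.15 over NPC P30 and -0.57 over NPC P15 D3 but -0.03 over NPC P5, where 7 genes were higher and 7 lower past the test. The summed level was 4987 to 5163 CPM in pipetted NPC and 5326 to 5534 CPM in NPC P5, against 6524 to 11049 CPM in the other 3 cultures.

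Psat1, an enzyme of serine synthesis, stood at 448, 458, 454, 464 and 442 CPM in pipetted NPC, against a lowest of 720, a median of 806 and a highest of 1123 CPM in the cultures. The gap between the groups was wider than the range of the pipetted libraries. Its log2FC was -0.71 ± 0.03 over NPC P5 (adjusted p = 4.6e-12), -1.04 ± 0.03 over NPC P15, -0.72 ± 0.03 over NPC P30 and -1.09 ± 0.07 over NPC P15 D3. Shmt2, which turns serine into glycine in mitochondria, stood at 346, 337, 309, 338 and 276 CPM against 422 to 661 (median 573). Aldh1l2, a mitochondrial enzyme of folate metabolism, stood at 49.6, 38.3, 43.8, 44.7 and 48.5 CPM against 64.3 to 258 (median 120), with a log2FC of -0.57 ± 0.08 over NPC P5 and -2.50 ± 0.07 over NPC P15. Atf5, a transcription factor of the response, stood at 174, 160, 165, 148 and 165 CPM against 219.7 to 1401 (median 474). Its log2FC was -0.48 ± 0.05 over NPC P5 and -3.10 ± 0.04 over NPC P15, the widest spread between cultures in the list's called genes. Mthfd2, another mitochondrial folate enzyme, was at 127 to 153 CPM against 154 to 445 and was just inside the threshold over NPC P5 (log2FC -0.21).

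Pycr1, the last enzyme of proline synthesis, was not on the list and came out by the size of its least difference. It stood at 21.1, 25.3, 17.8, 21.3 and 18.9 CPM against 31.2 to 94.0 (median 59.9), and its log2FC ran from -0.76 ± 0.12 over NPC P5 to -2.05 ± 0.12 over NPC P15 D3. Its promoter is shown because it holds TGATGNAA, the core at which ATF4 and C/EBP partners bind amino acid response genes. The window is the 250 bases before the RefSeq start on GRCm38.p6 (chr11:120643749-120643998, minus strand), 5′ to 3′, with the match in capitals.
Pycr1: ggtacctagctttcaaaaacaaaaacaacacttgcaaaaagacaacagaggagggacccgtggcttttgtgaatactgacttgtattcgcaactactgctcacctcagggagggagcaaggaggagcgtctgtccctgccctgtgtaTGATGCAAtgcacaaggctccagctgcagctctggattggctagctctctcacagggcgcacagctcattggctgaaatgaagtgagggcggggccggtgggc
The match begins 103 bases before the start. TGATGNAA, searched on both strands, occurred in 3.45% of all windows and in 1.9% of those of tested genes. It occurred in 6 of 51 windows of the lower genes (11.8%), 1 each of Gars, Hax1, Mtln, Polr2m, Pycr1 and Tmem268, and in 5 of 134 windows of the higher genes (3.73%). The windows of Psat1, Shmt2 and Atf5 held none.

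**Figure D3:**
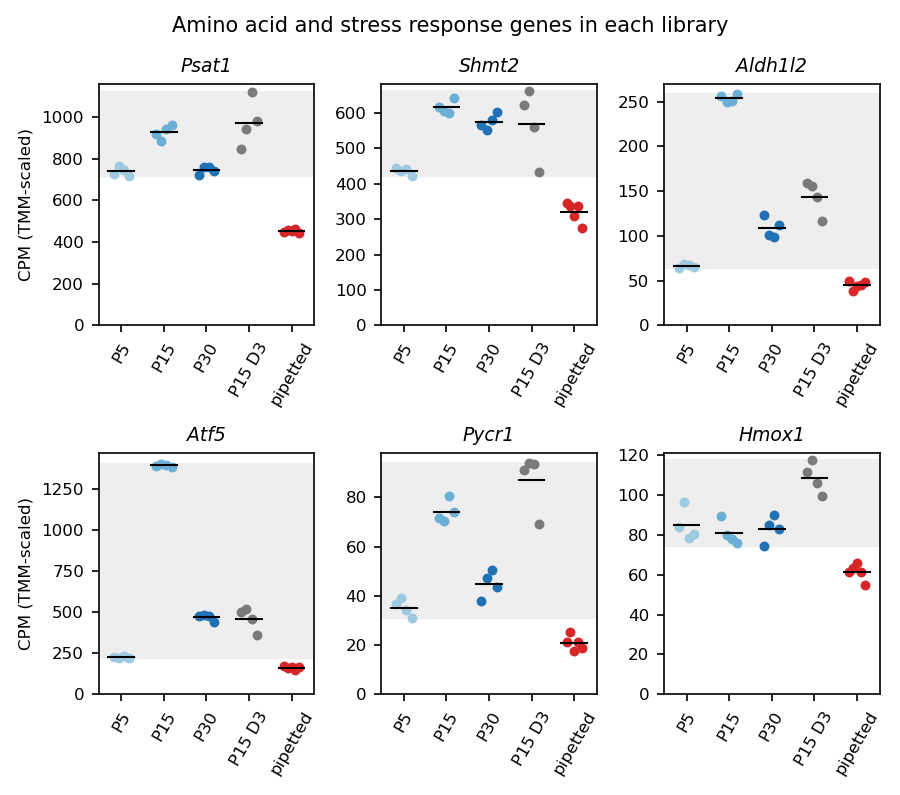
Level of 6 lower genes in each library in TMM-scaled CPM on a linear axis from 0, with 4 libraries of each culture and 5 of pipetted NPC in medium. Points are libraries, black lines group means and the grey band the range of the 16 culture libraries. All pipetted libraries lie below the band, as the definition of a call requires. By log2FC, NPC P5 is the nearest culture for Atf5, Aldh1l2, Pycr1, Shmt2 (-0.44) and Psat1 (-0.71, with NPC P30 at -0.72). For Hmox1 it is NPC P15 (-0.40).

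The other lower genes were of mixed kinds. Mtln, which encodes a small protein of the mitochondrial membrane, was at 2.20 to 3.99 CPM against 7.45 to 17.6, with a log2FC of -1.60 ± 0.26 or below in each comparison. Mrpl47, of the mitochondrial ribosome, was at 11.5 to 16.5 CPM against 20.6 to 37.0, and Uqcrq, of respiratory complex III, at 115 to 144 CPM against 157 to 485 was the only called gene among 71 nuclear-encoded respiratory chain subunits. That was 1.41% of these subunits, against 0.346% of all genes called lower. The long noncoding RNAs Pvt1 and Snhg5 were at 3.59 to 5.72 CPM against 8.18 to 14.2 and at 3.48 to 7.29 CPM against 8.22 to 16.5. Grb10, an adaptor that restrains insulin receptor signalling, was at 30.2 to 39.0 CPM against 54.2 to 154, with a log2FC from -0.82 ± 0.10 to -2.07 ± 0.08. Unpipetted NPC P15 D2 libraries held only 0 to 0.47 CPM of it.

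Some genes with long transcripts were lower, while others such as Sptb (12.15 kb) and Crybg3 (12.71 kb) were among the higher genes. Dync1h1, the heavy chain of cytoplasmic dynein, stood at 110, 151, 144, 168 and 177 CPM against 226 to 468 (median 310), with a log2FC from -0.74 ± 0.10 over NPC P5 to -1.57 ± 0.09 over NPC P15. Bod1l, which protects replication forks, was at 19.6 to 27.5 CPM against 35.3 to 72.8, and Ankrd11, a chromatin regulator, at 39.0 to 45.6 CPM against 53.7 to 117. Gng5, a G protein gamma subunit, was at 45.9 to 66.7 CPM against 78.8 to 143, and lost its call with NPC P15 D2 as a further culture, as did Grb10, Pvt1, Tmem268 and Uqcrq. Srr, serine racemase, was at 5.94 to 9.83 CPM against 10.1 to 18.4, and its call ended when any of 6 culture libraries or 2 pipetted libraries was left out. 2410006H16Rik and 4933431E20Rik, both noncoding, were lower by a least log2FC of -0.89 ± 0.17 and -0.68 ± 0.14.

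No gene was called in 20 of the 31 lists. They include the heat shock response, the unfolded protein response of the endoplasmic reticulum, p53 targets, YAP targets, SRF and actin targets, integrins and adhesion, both cell cycle lists and cytosolic ribosomal proteins. Of all 13858 genes only 1.23% were called, so a short list can hold no call at that share. No call therefore does not show that a response was absent. In single comparisons members did pass the test. Of the heat shock genes 11 were higher and 0 lower over NPC P30, but 3 were higher and 4 lower over NPC P5. Several genes fell just short. Hsp90ab1, a constitutive chaperone, lay above all culture libraries (5530 to 5782 against 4158 to 5471 CPM) but missed the threshold over NPC P15 D3 (log2FC 0.10 ± 0.03, adjusted p = 0.018), and it was called with DESeq2 size factors, library totals, a filter at 50 counts or all groups in 1 fit. Mki67, a marker of cycling cells, was past all 4 tests with a log2FC from -0.81 ± 0.17 to -1.60 ± 0.16, but its libraries overlapped with the cultures (42.8 to 86.1 against 82.9 to 232 CPM), while Top2a, another such marker, had a log2FC of 0.11 to 0.35. Egr1, an immediate early gene, was past all 4 tests with a log2FC from -0.63 ± 0.17 to -1.98 ± 0.07 and overlapped likewise (59.4 to 75.5 against 68.4 to 272 CPM). Fos had a log2FC of -1.92 ± 0.13 over NPC P5 and of 0.01, 0.10 and 0.39 over the others, where it did not pass the test. Jun was past the test in all 4 comparisons with opposite signs, from -0.66 to 0.71. Hspa1a, the inducible heat shock protein, stood at 2.20 to 5.58 CPM against 1.08 to 6.22, and no comparison passed the test.

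**Figure D4:**
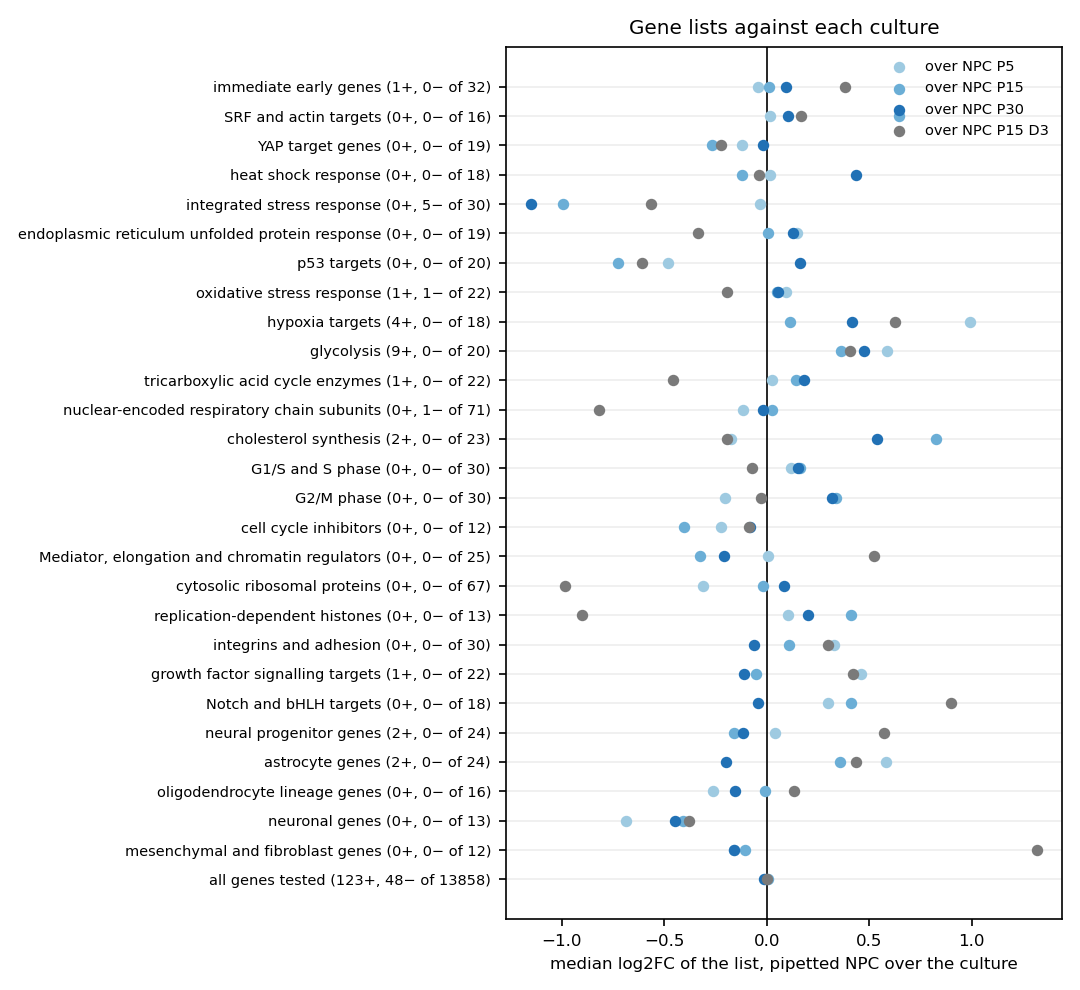
Median log2FC of each fixed gene list with more than 10 tested genes, for pipetted NPC in medium over each of the 4 cultures. Beside each name stand the genes called higher (+) and lower (−) in all 4 comparisons and the genes tested. Glycolysis lies to the right of 0 over all 4 cultures (0.36 to 0.59), as do hypoxia targets (0.11 to 0.99) and SRF and actin targets (0.02 to 0.65). The integrated stress response, YAP targets, cell cycle inhibitors and neuronal genes lie to the left over all 4. Most lists have cultures on both sides of 0.

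Pipetting in DCH, a synthetic polypeptide hydrogel used to carry NPC grafts, gave a view of the same genes in 10 further libraries. NPC were passed through the pipette in DCH or after a dwell of 4 h in DCH (n = 5 each). These groups share the 16 culture libraries with the comparison above, so their values are given side by side and not as separate support. Of the 123 higher genes, 120 had a positive median log2FC over the cultures in DCH and 118 after 4 h, and 45 and 43 of them were past all 4 tests. Of the 48 lower genes, 48 and 44 had a negative median log2FC, and 19 and 24 were past all 4 tests. The 123 and 48 genes were chosen for lying outside the range of these same culture libraries. The shared sign is therefore partly fixed by the choice, and the share over all genes is not given here.

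Set directly against pipetting in medium, 599 of 13860 genes differed in DCH (4.32%) and 1075 of 13794 after 4 h in DCH (7.79%). Of the 123 higher genes 35 and 40 did, and 33 and 37 of these were lower in DCH than in medium. As these genes were chosen for high values in the medium libraries, that direction is partly fixed by the choice. Slc16a3 stood at 26.6 to 45.1 CPM in DCH and 38.6 to 44.8 CPM after 4 h, below all medium libraries and above the 4 paired-read cultures. Both ranges overlapped with that of the unpipetted NPC P15 D2 libraries (28.9 to 43.3 CPM). The log2FC of Slc16a3 over medium was -0.69 (adjusted p = 0.00071) and -0.58 (adjusted p = 0.00019). Nr0b1 stood at 41.0 to 59.4 CPM and 39.2 to 53.4 CPM. Emid1 moved most of the way back to the cultures, with a median log2FC over them of 0.12 and 0.20 against 1.05 in medium. Gpi1 was higher in DCH than in medium, by 0.22 and 0.25 on the log2 scale (adjusted p = 0.00044 and 6.1e-05).

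Other calls stayed level between carriers. Psat1 stood at 397 to 485 CPM in DCH and 405 to 464 CPM after 4 h, and its log2FC over medium was -0.03 and -0.02 (adjusted p = 0.79 and 0.87). Egln3 had a log2FC over medium of -0.15 in both (adjusted p = 0.53 and 0.55), Pdk1 of 0.24 and 0.04, and Tpi1 of 0.07 and 0.09. A p that misses the threshold does not show that the carriers act alike. Gng5 and Srr were less low, with a median log2FC over the cultures of -0.15 and 0.24 after 4 h in DCH, against -0.87 and -0.82 in medium.

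**Figure D5:**
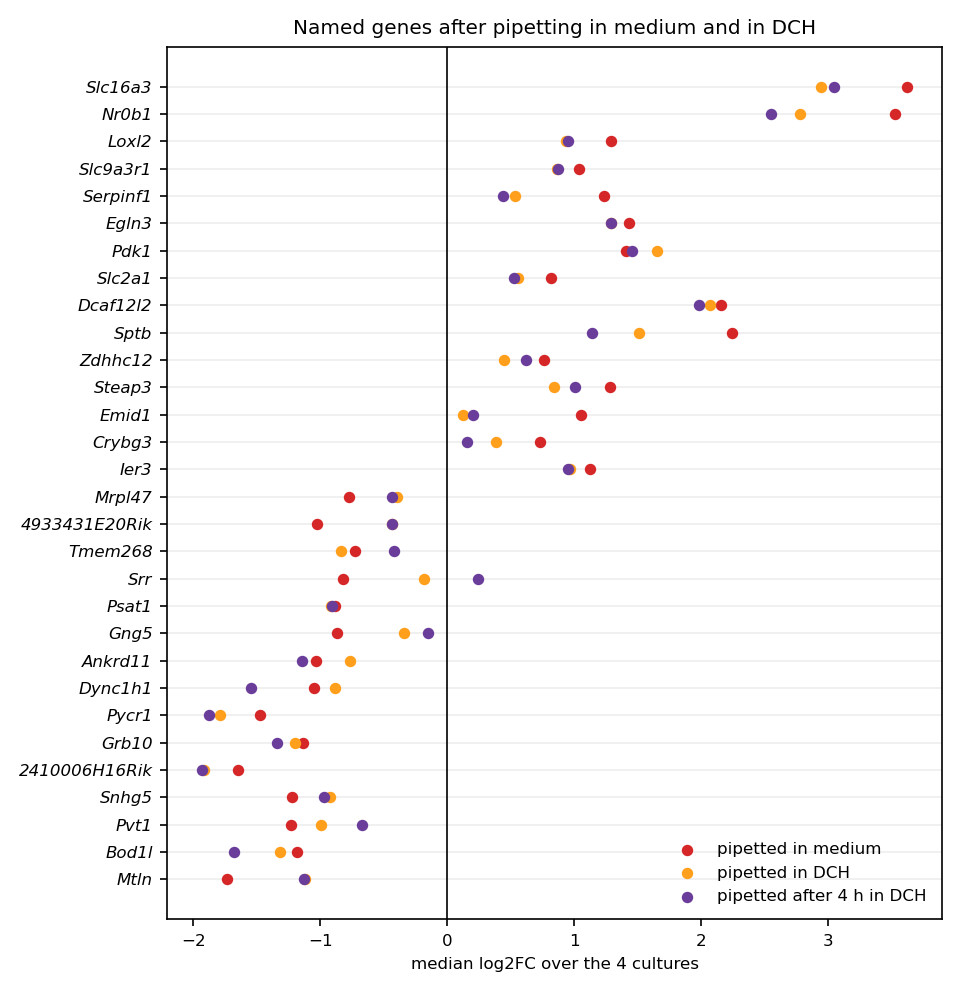
Median log2FC over the 4 cultures of the same 30 genes for NPC pipetted in medium, in DCH and after 4 h in DCH (5 libraries each), all against the same culture libraries. The 3 points of a gene lie on the same side of 0 except for Srr, and Emid1 shows one of the wider gaps (1.05 in medium, 0.12 in DCH).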

How the data were processed

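RiboTag RNA-Seq libraries of pipetted and cultured NPC were taken from the deposited tables of raw read counts per gene. Per the paper and the labels, the authors merged the lanes of a library, clipped its reads with Trimmomatic, used HISAT2 for alignment to mm10 and obtained the counts by featureCounts at its defaults. Even numbers are in excess among low counts, as when each mate of a pair is counted. All libraries listed the same 27179 genes by Entrez identifier. RefSeq (GRCm38.p6) named 25275 and GENCODE M21 named 18 more. No 2 libraries held identical counts, and no columns of other samples were used (0).

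Pipetted NPC in medium (n = 5) were compared with each culture (n = 4) on the counts of the 2 groups, with edgeR 4.0.16 in R 4.3.3 (TMM, filterByExpr at a minimum of 10 counts, glmQLFit, glmQLFTest). P-values were adjusted by Benjamini-Hochberg over all genes tested, with 0.01 as the threshold for a DEG. The SE is the size of the log2FC over the square root of F. Levels are TMM-scaled CPM over the 21 libraries, and those of NPC P15 D2 and DCH libraries were scaled over all 37 libraries. A called gene passed all 4 tests in 1 direction with its libraries outside the range of the cultures. Named genes were called genes whose mean reached 10 CPM, in pipetted NPC for the higher and in cultures for the lower, the first 15 in each direction by their smallest log2FC, up to 4 called genes of each list or its most abundant gene, and a few markers. Hk1, Pkm, Gapdh, Pfkl, Ldhb, Ldha, Mthfd2 and the genes under other observations were added after their values were seen. Members and lists were chosen with earlier results of these data known. Promoter windows were those of RefSeq, and the first bases of each printed gene after its start were found in a GENCODE transcript. Reads of overlapping or near-identical genes cannot be separated. A result on 1 gene is not reported here.

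Tested on simulated data for this comparison (14019 genes), the calls recovered 31 of 59 genes changed 1.5-fold, 30 of 60 changed 2-fold and 45 of 58 changed 4-fold, with 0 false calls. In that simulation each gene had the same mean in every culture, and unchanged genes had it in the pipetted group too. The real cultures differ, so neither the recovered shares nor the 0 false calls carry over to these data. Alternatives were DESeq2 1.42.0 and its size factors, library totals, other filters, 1 fit of all groups, the replicate number as a block, the tests alone, a log2FC of at least 1, NPC P15 D2 as a further culture, and each library left out in turn. Python 3.11.15 with pandas 2.3.3 and matplotlib 3.10.9 made tables and plots.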

Additional observations from a re-analysis of the deposited data

Results flagged for a closer look

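Single libraries stood apart from the rest of their group, by Dixon's ratio of gap to range, in 6 of 235 groups of 4 or 5 libraries examined for the called genes named (2.55%), where chance gives about 5%. Loxl2 was at 1.90 CPM in NPC P30 replicate 2, the library with the fewest counts, against 6.80 to 7.38 CPM in the others. Egln1 was at 121 CPM in the same library against 109 to 111 CPM. Pycr1 was at 69.1 CPM in NPC P15 D3 replicate 4 against 91.3 to 94.0 CPM, and Uqcrq at 194.3 CPM in NPC P5 replicate 2 against 179 to 180 CPM. Among pipetted NPC in medium, Gng5 was at 66.7 CPM in replicate 1 against 45.9 to 50.3 CPM, and Egln1 at 159 CPM in replicate 3 against 146 to 149 CPM. Leaving out these libraries one at a time did not end the calls of Loxl2, Pycr1, Gng5 or Uqcrq, but Egln1 lost its call without pipetted NPC replicate 3.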

How the results depend on the processing

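The counts of genes higher or lower than all 4 cultures changed most where the definition changed. With a log2FC of at least 1 in every comparison 5 genes were higher and 3 lower, and with the single-read NPC P15 D2 as a further culture 77 were higher and 33 lower, all of them among the 123 and 48. By the other alternatives with all libraries the higher genes numbered 82 to 151 and the lower genes 34 to 69, and the DEGs against each culture stayed within 1.5 times. Leaving out 1 library at a time gave 101 to 136 higher and 38 to 63 lower genes, 2896 to 4019 DEGs against NPC P5, 3098 to 3863 against NPC P15, 1198 to 1885 against NPC P30 and 4313 to 5607 against NPC P15 D3. Of the called genes, 61 higher and 25 lower kept their call in all 29 alternatives other than the minimum log2FC and the further culture, and no called gene turned its direction.

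Replicate numbers are shared between groups, but libraries of the same number did not deviate together (r from -0.104 to 0.0202 over genes). Blocking on replicate number, without pipetted replicate 5, which has no partner, gave 82 higher and 34 lower genes, and 3228, 3146, 1246 and 4125 DEGs against NPC P5, NPC P15, NPC P30 and NPC P15 D3.

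Named genes that lost their call without at least 1 library were Dhcr7 (NPC P5 replicates 1, 2 and 4, pipetted replicate 4), Egln1 (NPC P15 replicates 1, 2 and 3, pipetted replicates 2, 3, 4 and 5), Mrpl47 (NPC P30 replicates 1, 2 and 3, pipetted replicate 4), Pdk1 (NPC P30 replicate 3), Pvt1 (NPC P30 replicates 1 and 4), Snhg5 (all 4 NPC P30 replicates, pipetted replicates 1, 2 and 3), Srr (NPC P5 replicates 1, 3 and 4, NPC P15 replicates 1, 2 and 3, pipetted replicates 1 and 4), Tmem268 (NPC P5 replicate 2, NPC P15 replicate 3, NPC P30 replicates 1 and 4), Txn1 (NPC P30 replicate 1), Uqcrq (NPC P30 replicates 1 and 3) and Zdhhc12 (NPC P30 replicates 2 and 4). With all libraries, Txn1, Dhcr7, Egln1, Dcaf12l2 and Uqcrq lost it with all groups in 1 fit, Txn1, Dhcr7, Egln1 and Vim with library totals, Txn1 with DESeq2, and Snhg5 and Srr with no low-count filter. The cause was not tested. Genes with a median log2FC near 0 and no call changed sign, namely Hsp90b1 (-0.0229 with library totals, -0.0117 with NPC P15 D2, -0.0134 to 0.0183 without single libraries), Jun (-0.00 with library totals and -0.21 with NPC P15 D2), Mt3 (-0.28), Rpl22 (0.0078) and Gfap (-0.21) with NPC P15 D2, and, without single libraries, Gfap (-0.191 to 0.109) and Ccnd1 (-0.0173 to 0.0344). With 5 against 4 libraries, 30 of 60 genes changed 2-fold were recovered in simulated data whose cultures did not differ from each other.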

Other observations

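Some called genes outside the lists are given here as single genes. They were picked after their values were seen, and the genes of like function that were not called were not counted. Among the 123 higher genes were Scd1 and Scd2, the desaturases that make monounsaturated fatty acids, Fads1 and Fads2, the desaturases of polyunsaturated fatty acids, and Srebf1, the transcription factor that drives them. Scd1 stood at 987 to 1047 CPM in pipetted NPC against 303 to 712 CPM in the cultures, with a log2FC of 0.55 over NPC P30 and 1.67 over NPC P15. Scd2 stood at 5251 to 5546 CPM against 2321 to 4236 CPM. Fads2 stood at 544 to 568 CPM against 212.5 to 427 CPM, and Fads1 at 819.7 to 853 CPM against 489 to 738 CPM. Srebf1 stood at 678 to 791 CPM against 248 to 632 CPM. With NPC P15 D2 as a further culture, Scd1, Scd2 and Srebf1 lost their call, while Fads1 and Fads2 kept it. None of Scd1, Scd2, Fads2 and Srebf1 passed the test between DCH and medium, while Fads1 was lower in DCH (log2FC -0.21).

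Among the 48 lower genes, Gars, a tRNA synthetase, stood at 286 to 307 CPM against 356 to 542 CPM, and Rars, another, at 395 to 419 CPM against 445 to 788 CPM. Rars lost its call with NPC P15 D2 as a further culture, and Gars kept it. Eif4ebp1, a repressor of translation, stood at 76.4 to 101 CPM against 110.4 to 305 CPM. Bcat1, which acts on branched-chain amino acids, stood at 77.4 to 104 CPM against 113 to 235 CPM. Xpot, the exporter of tRNA from the nucleus, stood at 145 to 168 CPM against 177 to 275 CPM.

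Mest and Peg10, both imprinted genes, were higher, at 4521 to 4757 against 986 to 4250 CPM and at 789 to 870.0 against 328 to 672 CPM, and Grb10, also imprinted, was lower. In the unpipetted NPC P15 D2 libraries Grb10 stood lower still, at 0 to 0.47 CPM. Sting1, a sensor of cytosolic DNA signals, was higher, at 663 to 717 against 101.5 to 590.2 CPM, with a log2FC of 0.30 over NPC P30 and 2.59 over NPC P5.

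Transcript length moved with the cultures. Union-exon lengths were found for 167 of the 171 called genes. Of 2466 tested genes over 8 kb 13 were lower (0.527%) and 19 higher (0.77%). Of 1254 genes of 1 to 2 kb 7 were lower (0.558%) and 13 higher (1.04%). Among all genes 0.346% were lower and 0.888% higher. The median log2FC of genes over 8 kb was 0.06 over NPC P5, -0.08 over NPC P15, -0.08 over NPC P30 and 0.27 over NPC P15 D3. For genes under 1 kb it was -0.19, 0.02, -0.04 and -0.75.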
